A study of Mus musculus with 12 samples.

Results

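The genes described here are 39 that serve the neuronal cytoskeleton, synaptic vesicle release, secretion and axonal adhesion, taken by name from a list of such genes out of 18193 genes measured in the mouse embryonic tongue. Each gene was read by its brightest probe set with a single gene symbol, judged over all 12 arrays without regard to genotype, and all 39 were measured. RNA of whole tongues of C57BL/6J embryos at embryonic day 13.5 was hybridised to Affymetrix mouse arrays. The 6 mutant samples were Myf5-Cre;Smad4flox/flox and the 6 control samples were Myf5-Cre;Smad4flox/+, each called a biological replicate in the labels. All 12 therefore carried the Cre transgene, and the controls carried 1 floxed Smad4 copy. The Cre is driven by Myf5, a gene of skeletal muscle precursors. In which cells of the tongue the deletion took place was not tested. The labels state neither the litter nor how many tongues went into a sample.

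Neurons hold their long processes open with microtubules and neurofilaments, and extend them from a growth cone rich in microtubule regulators. At the axon ending, vesicles fuse with the membrane through a SNARE complex that calcium sensors trigger, while peptides leave from granin-rich dense-core granules. In the tongue of this stage these genes mark ingrowing sensory and motor axons and the parasympathetic ganglia that form along them. Only the ganglia have cell bodies inside the organ, and RNA comes mostly from cell bodies. Several of the genes are also used by glia, muscle precursors or mesenchyme, so a whole-tongue signal is not neuronal by itself.

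Most members were higher in the mutant tongue, with the largest differences for Snap25 and Pcp4. Of the 39 members, 24 rose, none fell and 15 did not pass, where passing means a limma adjusted p under 0.05 over all genes. Of all genes tested, 6.30% were called higher and 4.80% lower. The members were chosen with earlier results of these data known, so setting them against all genes is not an independent test. Of 111 other genes of the same machinery, described below, 24.3% were called higher and 5.41% lower. At an unadjusted p under 0.05, 31 members differed, of which 2 (Dcx and Nefh) lay lower, against 24.8% of all genes in either direction. The median difference of the members was 0.49 on the log2 scale, a 1.41-fold higher signal, against 0.0083 over all genes. For 14 members every mutant array lay above every control array, a pattern found in 3.40% of all genes, and for none did every mutant array lie below, a pattern found in 2.90%. Since whole tongue was measured, a larger number of nerve cells, more RNA per nerve cell and a smaller share of other tissue cannot be told apart. In the same arrays 13 of 14 skeletal muscle markers fell, with a median of -0.69, and their part in these results was not tested.

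Smad4, the deleted gene, read 11.58 on mutant 1 and 12.18 to 12.30 on the other mutants, against 12.16 to 12.35 on the controls, so that 5 of 6 mutants lay within the control range in whole tongue. Whether its probes lie in the deleted part was not tested. The groups follow titles and genotypes, since 1 free-text label speaks of embryos of another kind. Several arrays stood apart. On the first principal component, which held 35.0% of the variance, mutants 1 and 2 were farthest from the controls, at 24.7 and 20.3 against 2.90 to 14.8 for the other mutants. On mutants 4 and 6 Xist, the transcript of the inactive X, read 8.73 and 7.88, between the 6.18 to 6.65 and 12.40 to 12.68 of the other arrays, and on control 3 the Y-linked Eif2s3y read 6.03, between 3.14 to 4.01 and 8.88 to 9.34 elsewhere. Mutant 6 and control 6 had the lowest signal of the 18S ribosomal control probe sets, at a mean of 12.98 and 13.54 against 14.03 to 14.28 elsewhere. Without mutants 1 and 2, 16 members rose, without control 3 and mutants 4 and 6 it was 22, and without mutant 6 and control 6 it was 26.

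**Figure D1:**
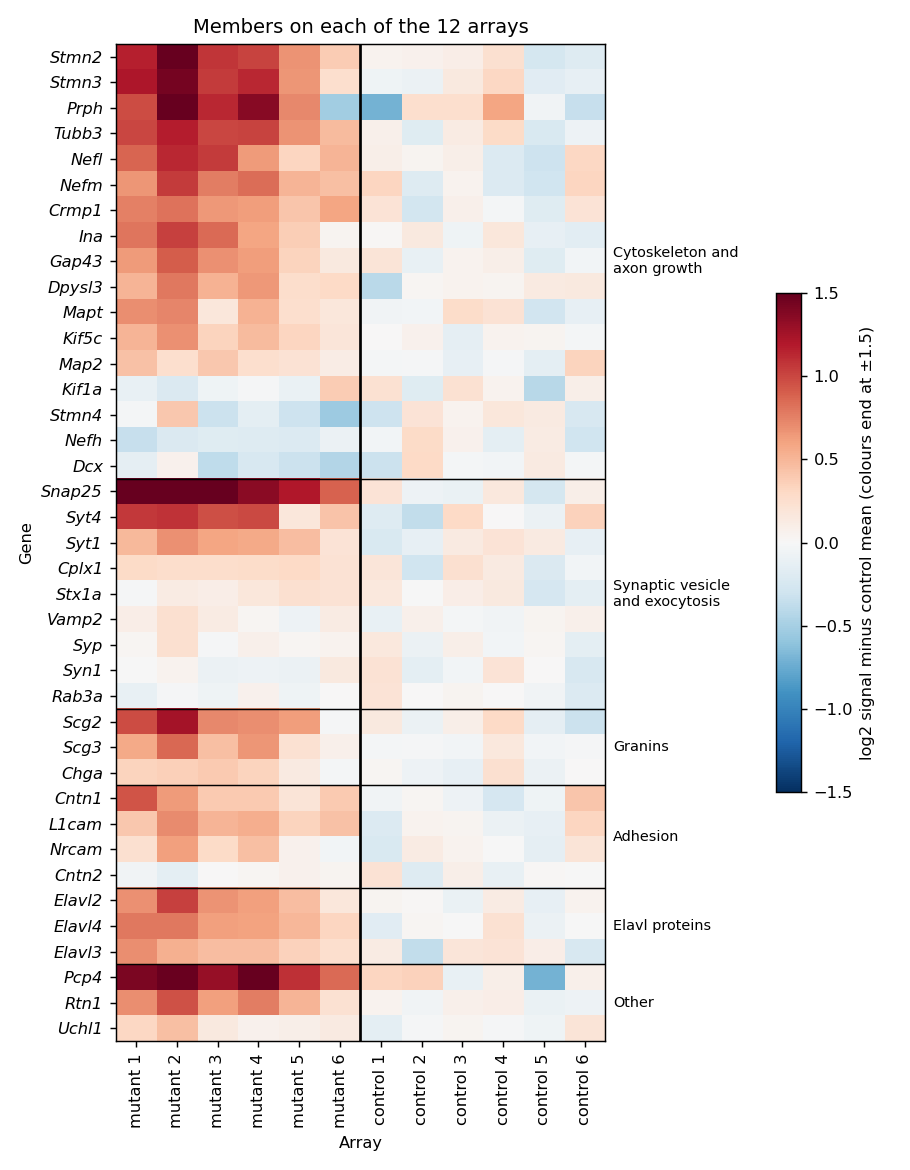
Each row is a member, grouped by role and sorted by fold change, and each column an array, mutants left of controls. Colour gives the log2 signal minus the control mean of that gene, with red above and blue below. Most rows of the cytoskeleton, Elavl and granin groups are red on mutants 1 to 4 and paler on mutants 5 and 6, while Syn1, Rab3a, Syp and Cntn2 show no block of colour.

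Promoter windows were searched because many members moved together. RefSeq windows of 300 bases, 250 before and 50 after an annotated start (GRCm38.p6), were at hand for 28 of the 39 members in 46 windows. The TATA motif TATAAA was present on either strand in 7 of the 46 member windows, against 13.6% of all 32851 windows. Overlapping windows of Dcx held the same site. Counted by gene, 6 of 28 members had the motif, against 15.7% of all genes with a window. The cyclic AMP response element TGACGTCA was present in 3 of 46, against 1.79% of all windows. By gene it was 3 of 28 members, against 2.03% of all genes with a window. Member windows had a median GC content of 58.5%, against 52.7% over all windows, and its bearing on the motif counts was not tested. The SMAD palindrome GTCTAGAC and the RE1 element, the site of a repressor of neuronal genes, were present in 0 of 46 member windows, against 0.213% and 0.0639% of all. A match is only a match of letters, and its absence covers these windows alone. The SMAD and RE1 motifs are so rare in all windows that finding none in 46 says little about the members. The windows given here are those of the 3 passing members with a motif and the smallest adjusted p, and that of Syn1, chosen after its values were seen because it holds the same cyclic AMP element as Scg2 and did not pass. Each reads 5′ to 3′ on the gene's strand with the motifs in capitals.
Kif5c, GRCm38.p6 chr2:49619036-49619335, plus strand: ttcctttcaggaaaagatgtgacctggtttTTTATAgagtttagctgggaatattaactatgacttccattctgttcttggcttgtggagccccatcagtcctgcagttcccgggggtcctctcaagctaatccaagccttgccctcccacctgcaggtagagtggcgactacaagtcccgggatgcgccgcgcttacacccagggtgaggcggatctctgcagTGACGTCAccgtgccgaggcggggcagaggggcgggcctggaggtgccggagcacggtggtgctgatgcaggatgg
Elavl3, GRCm38.p6 chr9:22051974-22052273, minus strand: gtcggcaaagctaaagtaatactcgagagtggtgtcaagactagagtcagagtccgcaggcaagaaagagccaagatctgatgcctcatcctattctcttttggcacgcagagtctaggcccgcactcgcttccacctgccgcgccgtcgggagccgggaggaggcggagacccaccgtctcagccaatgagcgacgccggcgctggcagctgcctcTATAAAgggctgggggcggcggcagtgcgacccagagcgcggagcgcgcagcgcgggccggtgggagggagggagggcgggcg
Scg2, GRCm38.p6 chr1:79439977-79440276, minus strand: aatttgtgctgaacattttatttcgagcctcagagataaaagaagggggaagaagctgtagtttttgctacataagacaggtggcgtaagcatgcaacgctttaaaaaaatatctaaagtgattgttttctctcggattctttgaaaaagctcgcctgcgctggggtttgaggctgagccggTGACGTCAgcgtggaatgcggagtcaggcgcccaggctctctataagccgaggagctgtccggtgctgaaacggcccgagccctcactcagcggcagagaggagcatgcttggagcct
Syn1, GRCm38.p6 chrX:20920869-20921168, minus strand: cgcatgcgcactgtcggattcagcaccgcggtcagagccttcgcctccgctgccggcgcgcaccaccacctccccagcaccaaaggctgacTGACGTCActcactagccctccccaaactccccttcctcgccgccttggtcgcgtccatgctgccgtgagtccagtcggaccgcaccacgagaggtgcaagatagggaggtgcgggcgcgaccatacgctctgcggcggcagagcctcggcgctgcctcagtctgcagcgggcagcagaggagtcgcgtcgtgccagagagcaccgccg
In Kif5c the TATA motif lay on the reverse strand, with its first base at position -220 from the start, and the cyclic AMP element began at -26. The TATA motif of Elavl3 began at -33. The cyclic AMP element began at -68 in Scg2 and at -159 in Syn1. Scg2 rose and Syn1 did not pass.

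Cytoskeleton and axon growth genes made up the largest role group, and 12 of its 17 members rose, with none falling and a median of 0.56. Tubb3, the neuronal β-tubulin, read 8.17 to 8.88 (median 8.70) over the mutant arrays and 7.48 to 7.98 (median 7.70) over the control arrays, a log2 signal as all levels here. The groups did not overlap, and the difference was 0.89 ± 0.12 (SE, adjusted p = 0.000591). Crmp1, which relays semaphorin signals to the growth cone, read 9.03 to 9.43 (median 9.25) in mutants and 8.34 to 8.82 (median 8.64) in controls, again without overlap (0.64 ± 0.09 SE, adjusted p = 0.000768).

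The stathmins, tubulin-binding proteins that destabilise microtubules, did not all do the same. Stmn2, which is enriched in growth cones, read 8.96 to 10.23 (median 9.63) in mutants and 8.32 to 8.82 (median 8.64) in controls, 1.99-fold higher (adjusted p = 0.00223). Its second probe set gave 1.03 (adjusted p = 0.00251 over all probe sets). Stmn3 rose by 0.96 ± 0.17 SE (adjusted p = 0.00254), and 5 of 6 mutants lay above every control. Stmn4 read 7.71 to 8.66 (median 8.04) in mutants and 7.95 to 8.46 (median 8.35) in controls, groups that overlap widely (-0.16 ± 0.14 SE, adjusted p = 0.546). Among the mutants its highest value was on mutant 2 and its lowest on mutant 6, as for Stmn2 and Stmn3. For Stmn4 the value on mutant 6 was below every control, and for Stmn2 it was above every control. The difference between stathmins was not itself tested.

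Neurofilament genes were likewise divided. The light and medium chains Nefl and Nefm rose without overlap of the groups. Nefl read 8.97 to 9.78 (median 9.40) in mutants and 8.34 to 8.96 (median 8.71) in controls (0.75 ± 0.14 SE, adjusted p = 0.00383), and its second probe set gave 0.58 (0.0103). Nefm read 8.99 to 9.58 (median 9.25) in mutants and 8.23 to 8.86 (median 8.46) in controls (0.71 ± 0.13 SE, adjusted p = 0.00296). Ina, α-internexin, which joins these chains in young neurons, rose by 0.61 (adjusted p = 0.0123), with 2 further probe sets at 0.72 and 0.57 that both passed. Without mutants 1 and 2 the difference of Ina was 0.46 (adjusted p = 0.0720).

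The heavy chain Nefh and peripherin did not pass. Nefh, which accumulates as axons mature, read 5.48 to 5.74 (median 5.62) in mutants and 5.53 to 6.11 (median 5.84) in controls (-0.21 ± 0.08 SE, adjusted p = 0.143), with all values under the median of all probe sets, 6.13. Without control 6 it was the single member called lower (-0.26, adjusted p = 0.0372). Prph, the intermediate filament of peripheral neurons, read 6.85 to 9.06 (median 8.43) in mutants and 6.67 to 7.96 (median 7.48) in controls. On 5 of 6 mutants it lay above every control, but mutant 6 was lower than all controls except control 1. Its difference of 0.89 ± 0.32 SE had an adjusted p of 0.0897, and without mutant 6 it was 1.18 (adjusted p = 0.00546). The other Prph probe sets, 3 dimmer ones, lay between -0.10 and 0.0017.

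Genes that stabilise microtubules came next. Map2, of dendrites, read 8.59 to 8.91 (median 8.73) in mutants and 8.33 to 8.81 (median 8.45) in controls, with 2 of 6 mutants above every control (0.28 ± 0.08 SE, adjusted p = 0.0413). Map2 no longer passed when any of 10 of the 12 arrays was dropped, at adjusted p values up to 0.0983, and without mutants 1 and 2 (0.25, 0.172). With the mean of all its probe sets the difference was 0.097 (adjusted p = 0.159), and its 3 other probe sets, all dimmer, lay between -0.035 and 0.076. Mapt, the axonal tau protein, read 6.63 to 7.19 (median 6.85) in mutants and 6.18 to 6.74 (median 6.42) in controls (0.42 ± 0.12 SE, adjusted p = 0.0402). It no longer passed when any of 7 of the 12 arrays was dropped, and without mutants 1 and 2 the difference was 0.27 (adjusted p = 0.212). Of its other probe sets 2 passed, which gave 0.56 (0.0218) and 0.74 (0.0105). Dcx, doublecortin of migrating young neurons, read 9.61 to 10.12 (median 9.77) in mutants and 9.73 to 10.35 (median 10.02) in controls (-0.24 ± 0.10 SE, adjusted p = 0.153). All 4 Dcx probe sets lay below 0, and a dimmer one was below every control on all mutants (-0.46, adjusted p = 0.00798 over all probe sets).

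Growth cone and motor genes rose with one exception. Gap43, a membrane phosphoprotein of growing axons, rose by 0.56 ± 0.11 SE (adjusted p = 0.00572), with 5 of 6 mutants above every control. Dpysl3, of the same collapsin response family as Crmp1 and also made in mesenchyme, read 11.08 to 11.60 (median 11.33) in mutants and 10.41 to 10.96 (median 10.86) in controls (0.51 ± 0.11 SE, adjusted p = 0.00766). Its other probe sets gave 0.50 and 0.25 and did not pass over all probe sets (limma adjusted p = 0.0554 and 0.0574). The brightest one had 0.0105 on that count. Kif5c, a neuronal kinesin heavy chain whose promoter is shown above, read 9.77 to 10.28 (median 9.99) in mutants and 9.45 to 9.65 (median 9.62) in controls (0.42 ± 0.08 SE, adjusted p = 0.0032). None of 3 dimmer Kif5c probe sets passed (-0.10 to 0.15), and with the mean of all its probe sets the difference was 0.14 (adjusted p = 0.120). Kif1a, a kinesin that carries synaptic vesicle precursors, read 6.12 to 6.72 (median 6.25) in mutants and 5.92 to 6.57 (median 6.41) in controls (-0.021 ± 0.12 SE, adjusted p = 0.944), and its second probe set gave 0.16.

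**Figure D2:**
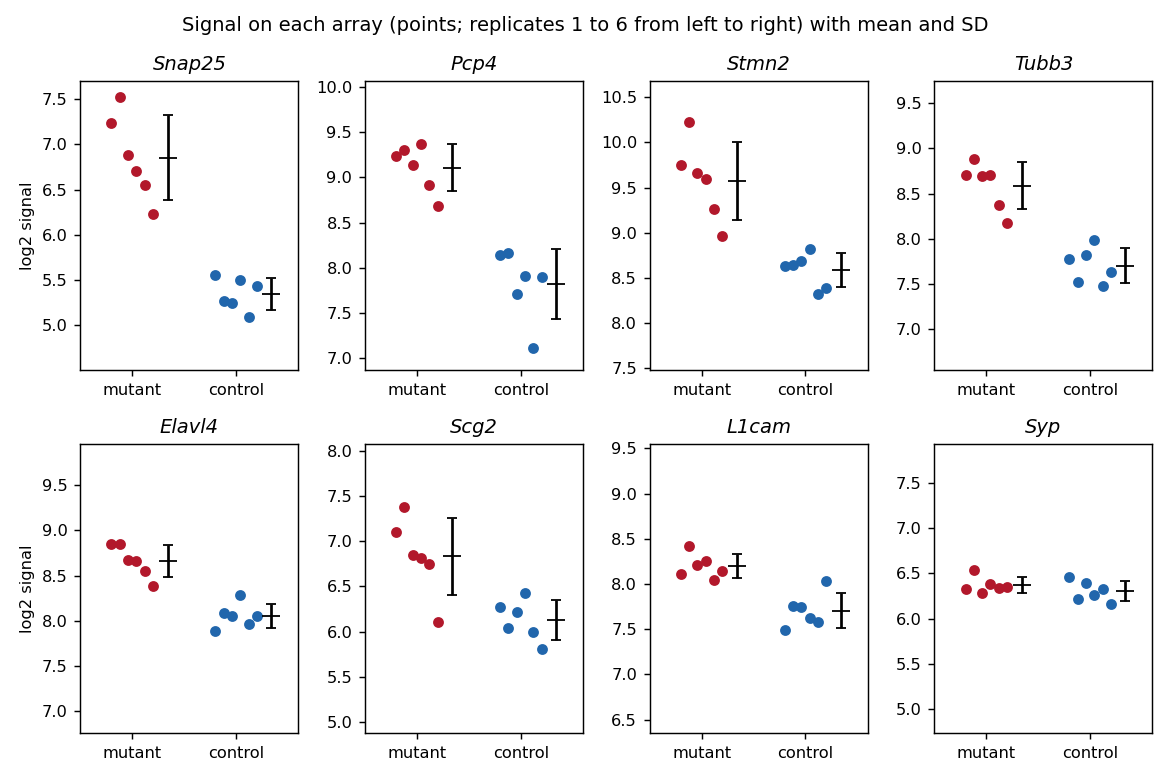
Points are the log2 signals of single arrays for 8 members, mutants left and controls right in each panel, with the mean and SD as a black bar; every panel spans the same number of log2 units. Snap25, Pcp4, Stmn2, Tubb3, Elavl4 and L1cam show no overlap between groups, Scg2 overlaps through mutant 6, and Syp overlaps throughout.

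Synaptic vesicle and exocytosis genes held 3 risers among 9 members, no fallers and a median of 0.14. Snap25, a SNARE protein of the plasma membrane, had the largest difference of all members. It read 7.24, 7.53, 6.88, 6.71, 6.55 and 6.23 on mutants 1 to 6, and 5.55, 5.27, 5.25, 5.50, 5.09 and 5.43 on controls 1 to 6. Every mutant was above every control, and the signal was 2.84-fold higher (1.51 ± 0.18 SE on the log2 scale, adjusted p = 0.000338). All control values and no mutant value lay under the median of all probe sets, 6.13, and a much dimmer second probe set gave 0.21 (adjusted p = 0.154 over all probe sets).

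Syt1 and Syt4, of the synaptotagmin family of vesicle fusion proteins, rose as well. Of 6 other synaptotagmins measured, Syt11 rose (0.33, adjusted p = 0.0192), while Syt2, Syt3, Syt5, Syt7 and Syt13 lay between -0.23 and 0.26 and did not pass. Syt1, the calcium sensor of fast release, read 7.51 to 7.99 (median 7.83) in mutants and 7.08 to 7.51 (median 7.31) in controls, with 5 of 6 mutants above every control (0.50 ± 0.09 SE, adjusted p = 0.00332). Its 3 other probe sets, all dimmer, lay between -0.15 and 0.059, and with the mean of all its probe sets the difference was 0.10 (adjusted p = 0.319). Syt4, a form that does not bind calcium in the usual way and sits on dense-core vesicles, read 6.62 to 7.53 (median 7.43) in mutants and 6.09 to 6.79 (median 6.41) in controls. It rose by 0.78 ± 0.17 SE (adjusted p = 0.00922), the second probe set by 0.79 (0.0102), and without mutants 1 and 2 the difference was 0.64 (adjusted p = 0.0672).

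The other vesicle members did not pass. Cplx1, complexin, which clamps the SNARE complex, read 8.55 to 8.63 (median 8.60) in mutants and 8.03 to 8.57 (median 8.38) in controls (0.27 ± 0.08 SE, adjusted p = 0.0570). The mutant values were tightly bunched and 5 of 6 lay above every control. Cplx1 passed under 4 other settings, with adjusted p values of 0.0365 to 0.0447, and without control 1 (0.31, 0.0387) or control 3 (0.32, 0.0286). Its other probe sets gave -0.010 and 0.22. Stx1a, the syntaxin partner of Snap25 in the SNARE complex, differed by 0.14 ± 0.07 SE (adjusted p = 0.280), with values of 8.01 to 8.27 in mutants and 7.78 to 8.19 in controls. Vamp2, the SNARE protein of the vesicle itself, read 8.61 to 8.93 (median 8.80) in mutants and 8.58 to 8.77 (median 8.70) in controls (0.088 ± 0.056 SE, adjusted p = 0.372). A dimmer Vamp2 probe set fell by 0.49 (adjusted p = 0.0285 over all probe sets), so that the pair disagreed.

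The vesicle proteins Syp, Syn1 and Rab3a were near 0. Synaptophysin, Syp, read 6.29 to 6.54 (median 6.34) in mutants and 6.16 to 6.46 (median 6.29) in controls (0.069 ± 0.059 SE, adjusted p = 0.532). Syn1, a synapsin that tethers vesicles, read 4.82 to 5.06 in mutants and 4.67 to 5.12 in controls (-0.0087 ± 0.079 SE, adjusted p = 0.963), all under the median of all probe sets. Rab3a, a GTPase of vesicle docking, read 9.75 to 9.92 (median 9.82) in mutants and 9.66 to 10.06 (median 9.86) in controls (-0.029 ± 0.061 SE, adjusted p = 0.824). For these 3 genes the mutant values lay almost wholly within the control range, with 1 mutant value of Syp above it.

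Granins, the acidic proteins that fill dense-core granules, were higher in 2 of 3 cases. Scg2, secretogranin II, read 7.10, 7.37, 6.85, 6.82, 6.75 and 6.11 on mutants 1 to 6, and 6.27, 6.04, 6.22, 6.43, 5.99 and 5.80 on controls 1 to 6. All mutants except mutant 6 were above every control (0.71 ± 0.17 SE, adjusted p = 0.0166). Scg3, which binds the granule membrane, read 7.30 to 8.09 (median 7.73) in mutants and 7.18 to 7.39 (median 7.20) in controls (0.47 ± 0.11 SE, adjusted p = 0.0132). Chga, chromogranin A, read 6.81 to 7.23 (median 7.17) in mutants and 6.72 to 7.08 (median 6.80) in controls and did not pass (0.25 ± 0.08 SE, adjusted p = 0.0602). All 3 were lowest among mutants on mutant 6 and highest among controls on control 4. Without mutants 1 and 2 neither Scg2 (0.50, adjusted p = 0.0874) nor Scg3 (0.35, 0.0623) passed, and without mutant 6 Chga passed (0.31, 0.0149).

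Adhesion genes of the axon surface rose in 2 of 4 cases. L1cam, a cell adhesion molecule of bundled axons, read 8.04 to 8.42 (median 8.18) in mutants and 7.50 to 8.03 (median 7.68) in controls. The groups did not overlap, though control 6 came close to the lowest mutant (0.49 ± 0.09 SE, adjusted p = 0.00278). A dimmer L1cam probe set gave 0.073 (adjusted p = 0.731 over all probe sets). Cntn1, a lipid-anchored contactin, read 6.67 to 7.42 (median 6.87) in mutants and 6.22 to 6.89 (median 6.42) in controls, with 2 of 6 mutants above every control (0.49 ± 0.12 SE, adjusted p = 0.0211). It did not pass without control 4 (0.44, adjusted p = 0.0502), without mutant 2 (0.47, 0.0504), without mutants 1 and 2 (0.35, 0.0957) or without control 3 and mutants 4 and 6 (0.53, 0.0910). Nrcam, a relative of L1cam, read 5.91 to 6.57 (median 6.21) in mutants and 5.72 to 6.15 (median 5.97) in controls (0.27 ± 0.11 SE, adjusted p = 0.134). Cntn2, a contactin of early axons, read 6.17 to 6.38 in mutants and 6.12 to 6.53 in controls (-0.012 ± 0.066 SE, adjusted p = 0.943), and its 3 other probe sets lay between -0.097 and -0.056.

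The neuronal Elavl genes, which encode RNA-binding proteins that stabilise transcripts of differentiating neurons, all rose, and in each the groups did not overlap. Elavl4 read 8.38 to 8.85 (median 8.67) in mutants and 7.89 to 8.29 (median 8.05) in controls (0.60 ± 0.08 SE, adjusted p = 0.000724), and its other probe sets gave 0.60 and 0.72. Elavl2 read 9.04 to 9.91 (median 9.52) in mutants and 8.75 to 9.00 (median 8.91) in controls (0.61 ± 0.11 SE, adjusted p = 0.00328). Of its 4 other probe sets 3 passed, at 0.61, 0.57 and 0.28. Elavl3, whose promoter is shown above, read 7.02 to 7.47 (median 7.23) in mutants and 6.40 to 6.97 (median 6.88) in controls (0.46 ± 0.11 SE, adjusted p = 0.0127). Its other probe sets gave 0.67 (0.00129) and 0.27 (0.0625), and without mutants 1 and 2 its difference was 0.38 (adjusted p = 0.0829).

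Of the remaining neuronal proteins Pcp4 and Rtn1 rose. Pcp4, a small peptide that binds calmodulin, read 9.24, 9.30, 9.14, 9.37, 8.91 and 8.68 on mutants 1 to 6, and 8.15, 8.17, 7.71, 7.91, 7.11 and 7.90 on controls 1 to 6. The signal was 2.43-fold higher (1.28 ± 0.17 SE on the log2 scale, adjusted p = 0.000519). No mutant reached down to the highest control, and control 5 was the lowest array. Rtn1, a reticulon of the endoplasmic reticulum in neurons and neuroendocrine cells, read 9.09 to 9.82 (median 9.52) in mutants and 8.76 to 8.96 (median 8.87) in controls (0.63 ± 0.10 SE, adjusted p = 0.00134). Uchl1, an abundant neuronal ubiquitin hydrolase, read 9.22 to 9.60 (median 9.29) in mutants and 9.01 to 9.34 (median 9.14) in controls and did not pass (0.20 ± 0.07 SE, adjusted p = 0.104).

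**Figure D3:**
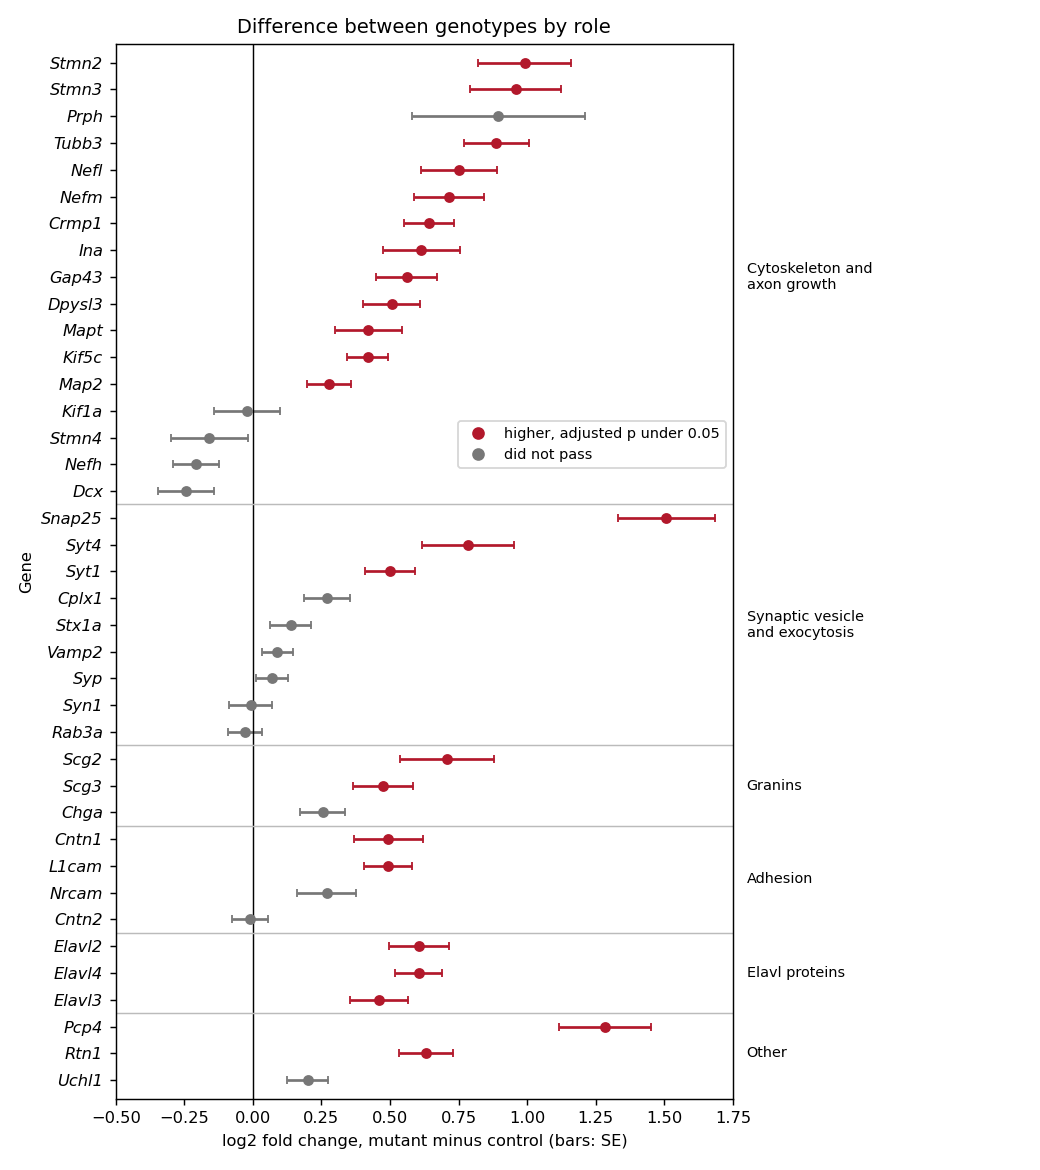
Points give the log2 difference, mutant minus control, of each member with its SE, grouped by role; red members passed at an adjusted p under 0.05 and grey ones did not. Differences run from -0.24 for Dcx to 1.51 for Snap25, and all 24 red points lie right of 0.

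The size of the rise varied between mutant arrays in a way the members shared. Averaged over the 24 members that rose, mutant 2 lay 0.99 above the control mean, mutant 1 lay 0.83 above it, mutant 4 0.73, mutant 3 0.72, mutant 5 0.46 and mutant 6 0.33, while the controls lay between -0.15 and 0.09. Mutant 2 was the highest mutant for 19 of these 24 members, and mutant 6 the lowest for 17. Mutant 1 was above every control for 24 of 24 members and mutant 6 for 15 of 24. These averages run over members that were called on the same arrays and so only describe the spread. The skeletal muscle markers lay at -1.01, -0.64, -0.60, -0.86, -0.48 and -0.65 on mutants 1 to 6, against -0.32 to 0.16 over the controls. Whether these values go with the members' rise was not tested.

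**Figure D4:**
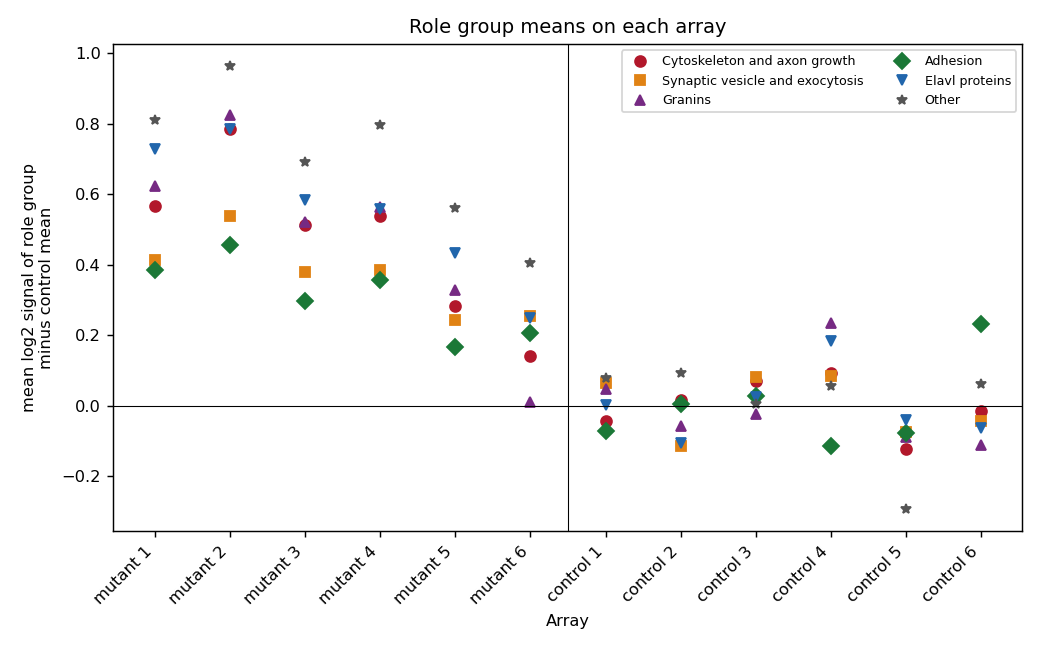
Each symbol is the mean log2 signal of a role group on an array, minus the control mean of that group, with the 6 mutants left of the 6 controls. The granin mean ran from 0.011 on mutant 6 to 0.82 on mutant 2, which overlaps with control 4 at 0.24, and the adhesion mean from 0.17 on mutant 5 to 0.45 on mutant 2, which overlaps with control 6 at 0.23.

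Other genes of the same machinery, were drawn from 5 lists. Of 111 measured, 27 rose (24.3%) and 6 fell (5.41%, close to the 4.80% of all genes), and the median was 0.092. Among 27 further cytoskeletal and axon growth genes, 7 were called higher and 3 lower (median 0.028). The kinase Dclk1, a relative of Dcx, fell by 0.62 (adjusted p = 0.000951) and the kinesin Kif1b by 0.40 (0.00168), while the axonal ankyrin Ank3 rose by 0.25 (0.00404). Among 33 vesicle genes, 5 were called higher and 2 lower (median 0.037). Doc2b, a calcium sensor of release, rose by 0.50 (adjusted p = 0.000519), while Rab3b, a relative of Rab3a, fell by 0.60 (0.000688) and the complexin Cplx2 by 0.52 (0.00208).

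Granule, adhesion and RNA-binding genes outside the members rose or did not pass, save one. Of 14 dense-core granule genes, 3 were called higher and 0 lower (median 0.13). Chgb, the granin chromogranin B, read 7.31 ± 0.29 in mutants and 6.35 ± 0.12 in controls (SD, n = 6 each), a rise of 0.96 (adjusted p = 0.000338), beside Nrsn1, neurensin (0.84, 0.00141), and Cadps, which primes granules (0.61, 0.0353). Of 24 adhesion genes, 8 were called higher and 1, Ntm, lower (median 0.19). The leading ones were Astn1, an adhesion protein of migrating neurons (0.49, adjusted p = 0.00132), the teneurin Tenm2 (0.70, 0.00208) and Chl1, close to L1cam (0.40, 0.00856). Of 13 further neuronal RNA-binding genes, 4 were called higher (median 0.20), led by Celf5 (0.62, 0.000463), Khdrbs3 (0.45, 0.00267) and Nova1 (0.48, 0.0136).

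Markers of the cells that could carry these transcripts were read from the same arrays. None of the 11 central nervous system markers, 10 sensory neuron markers or 6 motor neuron markers passed, with medians of -0.023, -0.028 and 0.045. The mean level of the central nervous system list was 4.47 to 4.57 in mutants and 4.39 to 4.63 in controls. That of the sensory list was 6.61 to 6.78 in mutants and 6.61 to 6.78 in controls, and that of the motor list 5.49 to 5.76 in mutants and 5.37 to 5.61 in controls. The deposited values hold no detection calls, so it cannot be said which of these markers were above background. Of 9 autonomic markers, 4 were called higher and 1 lower, with a median of 0.38 and a mean level of 7.63 to 8.14 in mutants and 7.57 to 7.79 in controls. Phox2a, a determinant of autonomic neurons, rose by 0.82 (adjusted p = 0.000904), Hand2, which mesenchyme also expresses, by 0.38 (0.00875), and the receptor Ret fell by 1.01 (0.00587).

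Glial markers moved both ways. Of 10 Schwann cell and glial markers, 4 were called higher and 2 lower, with a median of 0.16 and a mean level of 8.61 to 8.77 in mutants and 8.47 to 8.60 in controls. The neuregulin receptor Erbb3 fell by 0.51 (adjusted p = 0.000519), the fatty acid binding protein Fabp7 rose by 1.00 (0.000918) and S100b by 0.79 (0.0012), while Sox10, the defining factor of the lineage, differed by 0.092 (0.450). Of the 14 skeletal muscle markers, whose mean level was 11.23 to 11.77 in mutants and 11.93 to 12.40 in controls, Tnnc2 fell by 0.68 (adjusted p = 0.000338), Myh8 by 1.39 (0.000463) and Actn2 by 0.57 (0.000761). Their mean level was above the median of all probe sets, 6.13, on every array of this muscular organ. The part of any of these cell types in the members' differences was not tested.

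**Figure D5:**
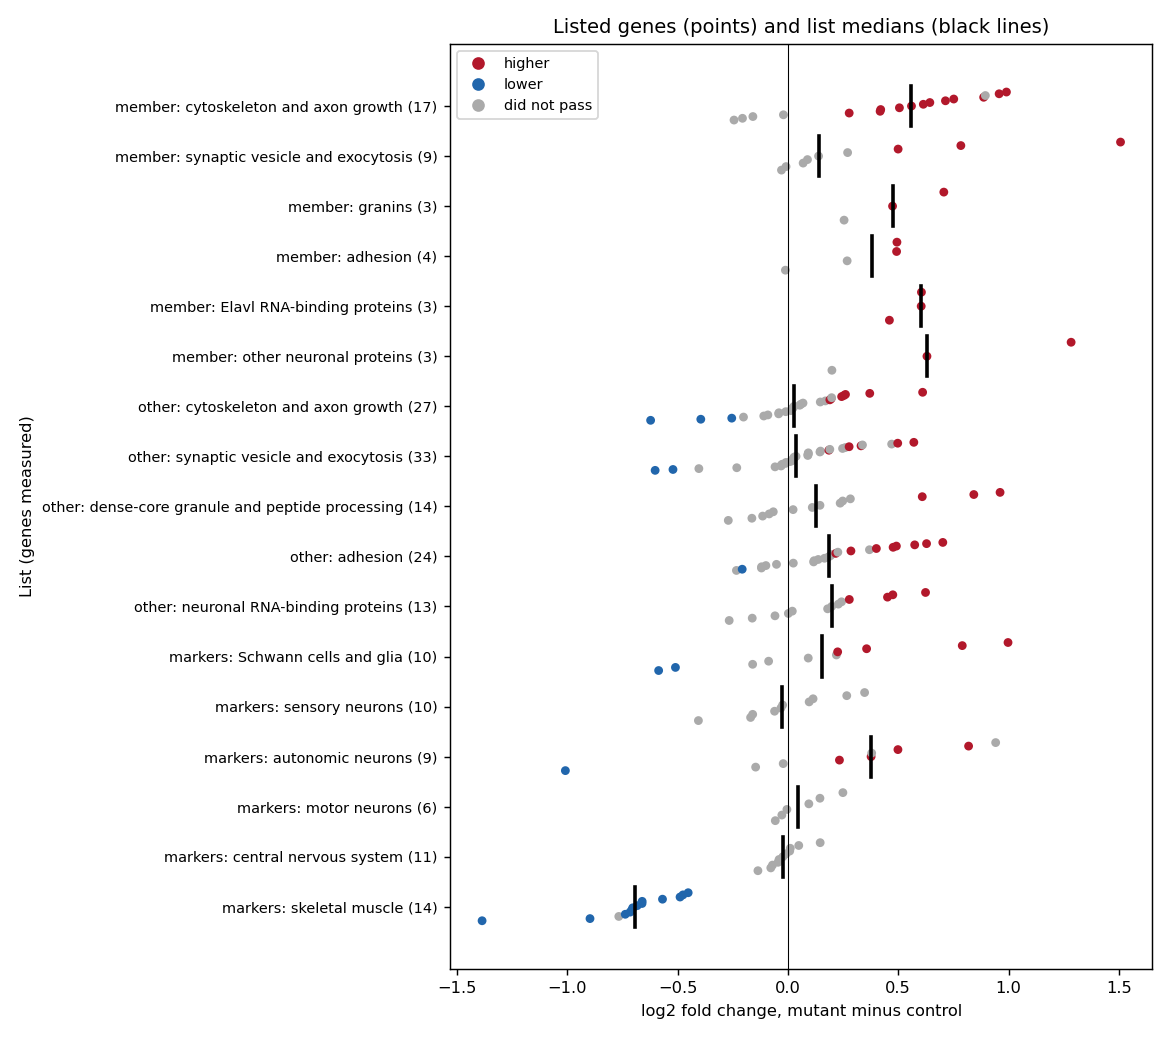
Points are single genes, by list, at their log2 difference, mutant minus control; red points rose, blue points fell and grey points did not pass, and a black line marks each list's median. The 3 Elavl members and the autonomic markers lie mostly right of 0, central nervous system markers sit around 0, and all 14 muscle markers lie left of 0.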

How the data were processed

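RNA of 6 mutant and 6 control tongue samples at embryonic day 13.5 was measured, with 1 array per sample. The authors deposited log2 signals per probe set made with RMA, per the submitters' processing notes; the sources used here give no version or log base, and base 2 was taken from the values (2.57 to 15.09). RMA equalises the arrays, so a change shared by most genes is hidden, and dim probe sets understate changes. Array medians were 6.10 to 6.18, and correlations between arrays 0.991 to 0.997. Arrays carry no counting depth, and their number limits precision.

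Of 45101 probe sets, 64 controls were left out. The platform annotation gave 1 symbol for 34945, several for 932 and none for 9160. Each of 18193 genes took its brightest probe set, and 26 of the 39 members had others. Adjusted p values of these others, and whether they passed, were taken over all 34945 probe sets with 1 symbol. Mutant minus control was fitted with limma 3.58.1 in R 4.3.3 (genotype the only term, 2-sided, Benjamini-Hochberg over all genes, threshold 0.05) after a test on simulated data. There, 100 genes each were changed by 0.5 and by 1 on the log2 scale, with noise independent between arrays. Of these, 83% and 99% were recovered. The real data gave 1147 higher and 873 lower calls, so these shares need not hold for them. Of the simulated calls, 7.14% were unchanged genes. All members are named; of each other list the 3 passing genes of smallest p, beside Sox10, Ntm and the synaptotagmins, chosen after their values were seen. Members, lists and alternatives were chosen with earlier results of these data known. Whether replicates came from separate litters is not given, and the p-values treat the samples as independent. Alternatives covered scaling, probe sets, dim genes, variance model, weights, block, unequal variance and arrays left out.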

Additional observations from a re-analysis of the deposited data

Results flagged for a closer look

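Among the 78 groups of 6 arrays formed by the members and genotypes, 5 held an array far from the rest, by Dixon's ratio of its gap to the group's range at the 95% level. Chance alone flags about 1 in 20 groups. Kif1a on mutant 6 read 6.72, against 6.12 to 6.32 on the other mutants. Syp on mutant 2 read 6.54, against 6.29 to 6.38 on the other mutants. Map2 on control 6 read 8.81, against 8.33 to 8.47 on the other controls. Dpysl3 on control 1 read 10.41, against 10.85 to 10.96 on the other controls. Scg3 on control 4 read 7.39, against 7.18 to 7.21 on the other controls. Leaving out those single arrays ended no call of Dpysl3 or Scg3, and Map2 kept its call without control 6.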

How the results depend on the processing

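The count of members higher in mutants was 24 and ran from 16 to 26 over the alternatives, 21 to 26 with each array left out singly. It was 16 without mutants 1 and 2, 17 in an unequal-variance test and 21 with the mean of all probe sets, where the members' median was 0.28. With dim probe sets left out it was 25 of 35, since Snap25, Nefh, Syn1 and Nrcam were not tested. Of the 24, 14 kept their call in every setting where they were tested, other probe sets taken on their own apart, and none of the 24 changed sign there. Members lower numbered 0 to 1 over single arrays left out and 1 without control 6 and mutant 6 (Nefh). Passing granins numbered 0 in the unequal-variance test and 0 without mutants 1 and 2; passing adhesion genes numbered 1 in both, 1 without control 3 and mutants 4 and 6, and 1 to 2 over single arrays. Over all genes the higher calls were 379 and the lower 496 without mutants 1 and 2, 440 and 396 without control 3 and mutants 4 and 6, and 733 to 1209 and 665 to 899 over single arrays. The cause was not tested; fewer samples were fitted.

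Members near 0 changed sign. With the mean of all probe sets Kif1a was 0.070, Vamp2 -0.20 and Rab3a 0.015. Without mutants 1 and 2 Kif1a was 0.051 and Cntn2 0.033, and with quantile normalisation Syn1 was 0.0099. Over single arrays left out Kif1a ran from -0.10 to 0.026, Syn1 from -0.056 to 0.033, Rab3a from -0.069 to 0.011 and Cntn2 from -0.051 to 0.031. Of 51 other probe sets, 11 had the opposite sign: Prph -0.10 and -0.049, Map2 -0.035, Kif5c -0.10, Kif1a 0.16, Syt1 -0.15 and -0.015, Syp -0.038, Vamp2 -0.49, Rab3a 0.059 and Cplx1 -0.010. Deviations of same-numbered samples correlated at 0.12 to 0.24 in 5 of 6 pairs and at -0.057 in replicate 3, and 7 of 12 samples correlated best with their own number, so whether the numbers pair the samples is not settled. With the replicate number as a block 24 members were higher, Prph passed (0.89, adjusted p = 0.028) and Map2 did not (0.28, 0.0956); Cplx1 passed with median-centred arrays, dim probe sets left out, trended variance or array weights. Dim probe sets limit what can be seen, above all for Syn1 and Nefh.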
